A study of Mus musculus with 2 samples.

Results

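Rab GTPases are small switch proteins that mark the membranes of the secretory and endocytic pathways. Bound to GTP, a Rab recruits effectors such as tethers, motors and sorting factors. Exchange factors load it with GTP, GTPase-activating proteins make it hydrolyse GTP, and a prenyl anchor that other proteins attach and shield lets it cycle between membrane and cytosol. In macrophages, Rabs direct the maturation of phagosomes and endosomes into lysosomes.

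The Rab genes were taken as all probes that are not controls and whose gene name in the array files is Rab followed directly by a digit. This rule gave 67 genes on 92 probes, of 22800 named genes and 39429 probes on the arrays. Of the 67 genes, 58 encode GTPases, and 9 encode regulators or effectors that carry a Rab name. The GTPase gene Rab7b falls outside the rule because the files give it an older symbol. Each GTPase gene was placed in 1 compartment by textbook knowledge, although several act at more than 1.

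The arrays, 1 per group, compared Lamtor1 knockdown with control RAW264.7 cells, an established macrophage-like line of the mouse. Lamtor1 anchors Ragulator, the complex that holds Rag GTPases and mTORC1 at the lysosome, and the study asked how active the transcription factor TFEB is in cells without Ragulator. The labels give both samples the same treatment text, a commercial lentivirus mixture of 2 short hairpin vectors against Lamtor1 followed 2 days later by limiting dilution. The labels do not say what the control cells received or whether either population came from 1 clone. With 1 array per group there is no replicate check and no test, and every difference describes these 2 arrays only. In bulk RNA, fewer cells of a type and less RNA per cell cannot be told apart.

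Each level is the log2 signal minus that of the array's own 75th percentile, and differences are knockdown minus control. A gene takes the value of its brightest probe and counts as measured where that probe is well above background on at least 1 array. Lamtor1 had a level of 4.10 in the control and -0.43 in the knockdown, a 23.1-fold lower signal. Macrophage markers were above background on both arrays for 8 of 8 genes, and their summed level was 8.30 in the control and 7.77 in the knockdown (log2). Among them Adgre1 was 2.95-fold lower and Cd68 2.33-fold higher. Of 9 markers of T, B, epithelial and fibroblast cells, 7 were not well above background on either array, and Cd3e and Col1a2 were above it on both. The summed level of those 9 markers was -1.18 in the control and -1.15 in the knockdown. The part of these markers in the Rab values was not tested.

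The Rab genes shifted little, and mostly upward. Of 54 measured Rab genes, 34 (63.0%) had a difference above 0, against 45.7% of all 13772 measured genes. The median Rab difference was 0.21, against -0.05 over all genes, and the quartiles of the Rab genes were -0.07 and 0.53. Scaled to the array medians instead, 75.9% of Rab genes and 53.9% of all genes had a difference above 0. At least 2-fold higher were 4 of 54 (7.41%), against 9% of all genes, and at least 2-fold lower was 1 (1.85%), against 8.35%, while 17.3% of all genes passed 2-fold in either direction. With each gene that was above background on 1 array set at its bound, 3 Rab genes were higher, against 7.72% of all genes, and 1 was lower, against 6.86%. These counts at 2-fold do not stand above the background, and 49 Rab genes stayed within 2-fold. The 45 measured GTPase genes alone had a median of 0.21, with 29 above 0. Of the 51 Rab genes with signal above background on each array, 2 were at least 2-fold higher, against 6.31% of such genes, and none was 2-fold lower, against 5.52%.

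**Figure D1:**
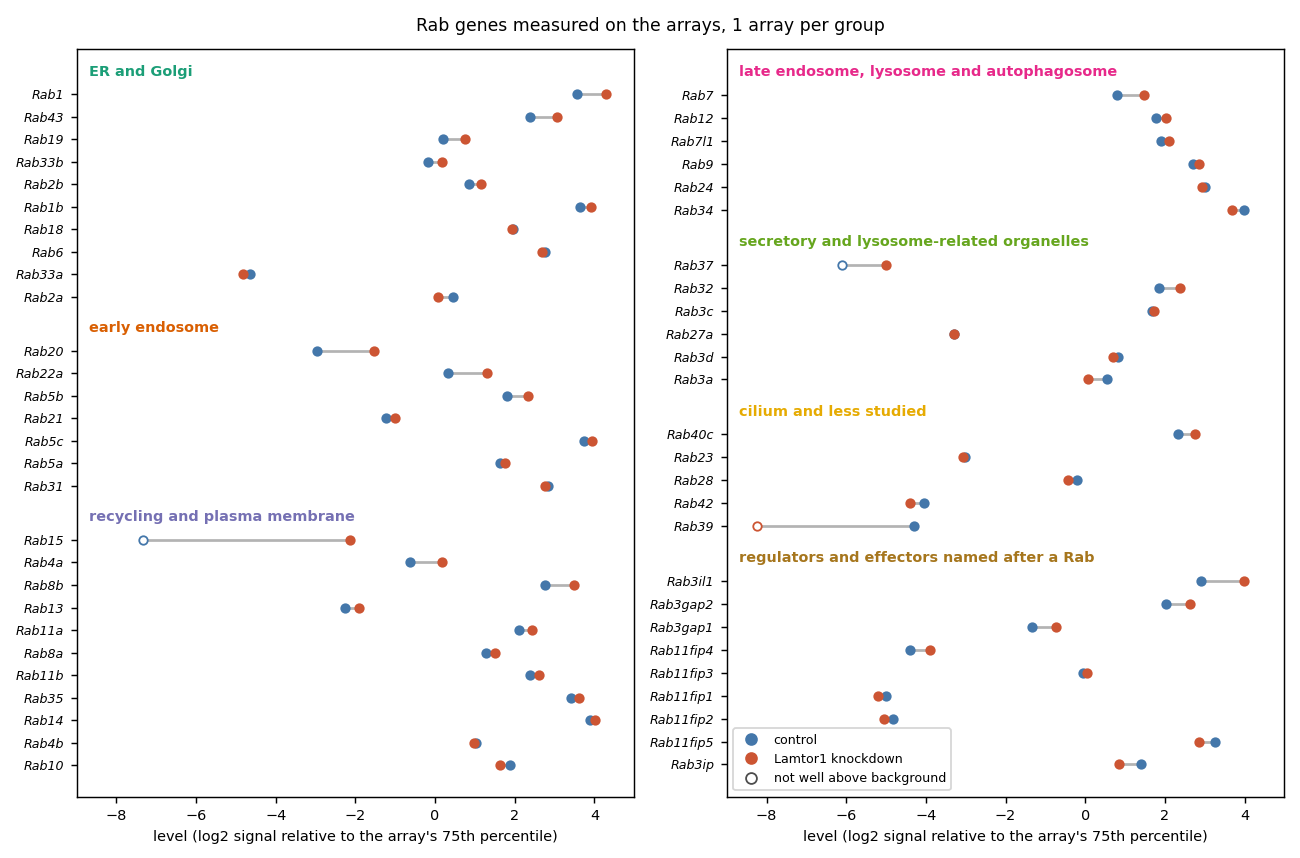
Level of each measured Rab gene in the control (blue) and the Lamtor1 knockdown (orange), as log2 signal relative to the 75th percentile of the array, grouped by compartment, with 1 array per group and no error bars. Open points were not well above background. Most pairs lie close together, Rab20 and Rab3il1 are at least 2-fold higher with both points above background, and the long lines of Rab15 and Rab39 each end in an open point.

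**Figure D2:**
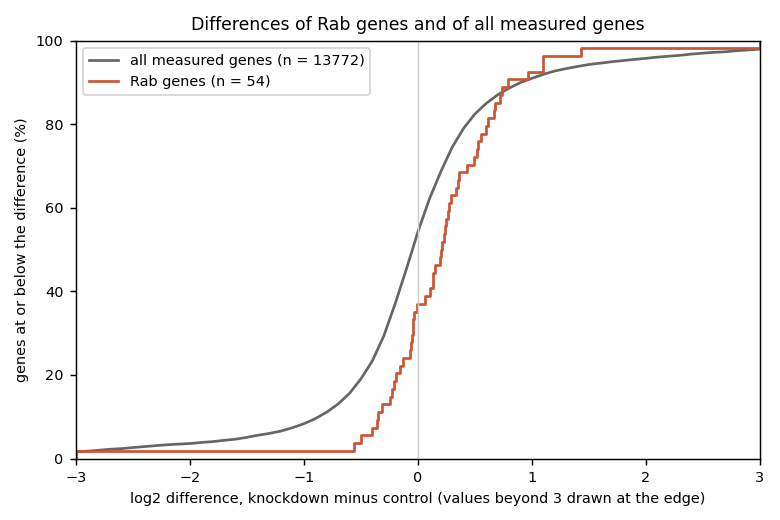
Share of genes at or below a given log2 difference, knockdown minus control, for 54 measured Rab genes (orange) and 13772 measured genes (grey). The Rab curve lies to the right of the grey curve over most of the middle range, and its lower tail is short.

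Rabs of the early endosome had differences above 0 in 6 of 7 measured genes (85.7%), with a median of 0.24. The share was 45.7% over all genes and 63.0% over all Rab genes. Each compartment holds few measured genes, from 5 to 11, and differences between compartments were not tested. Rab20, a Rab of endosomes and maturing phagosomes, had a processed signal of 150 in the control and 432 in the knockdown. Its level was -2.97 in the control and -1.54 in the knockdown, 2.69-fold higher, or 2.11-fold with normexp, another background correction. It was the GTPase gene with the largest difference among those above background on both arrays, read by a single probe on chromosome 8 at 11454183 to 11454242 (mm9). Rab22a, which acts between early and recycling endosomes, went from 0.33 to 1.30, 1.95-fold higher, and its relative Rab31 had a difference of -0.06.

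The 3 Rab5 genes, which encode the GTPase that defines early endosomes and drives their fusion, all had small positive differences. Rab5a had levels of 1.62 and 1.75, and its probe was spotted 10 times on each array. The 10 spot differences ran from 0.09 to 0.16 with a mean of 0.13 and an SD of 0.02. That SD covers spotting and scanning on 1 pair of arrays, not cultures. The other probe of Rab5a gave 0.42, so the choice of probe moved this gene by more than the spots did. Rab5b had levels of 1.81 and 2.33, a difference of 0.52, and its 4 probes gave 0.37 to 0.52. Rab5c had levels of 3.73 and 3.95, a difference of 0.21. Rab21, which acts in integrin endocytosis, had signals of 495 and 627, a difference of 0.24. Rab17 was not well above background on either array.

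TFEB and its relatives bind a palindrome with CACGTG at its centre, known in full as the CLEAR element, so the promoters of the Rab genes were read for it. RefSeq promoters (GRCm38.p6, 250 bases before the start to 50 after) were found for 55 of the 67 genes, with 73 start sites. The letters searched were CACGTG, TCACGTGA and GTCACGTGAC, each contained in the next and each the same on both strands. CACGTG was present for 8 of 55 Rab genes (14.5%), against 8.09% of 27025 genes. GTCACGTGAC was present for 3 Rab genes (5.45%), against 0.37% of genes, and TCACGTGA for the same 3, against 1.12%. Those 3 are Rab5a, Rab21 and Rab24, a GTPase of autophagosomes. The sequences below show these 3 and the 2 genes above background on both arrays at 2-fold or more, Rab20 and Rab3il1, with the searched letters in capitals. Each stretch is the 120 bases before the start, except that of Rab24, which is 30 bases around its start, where its letters begin at the first transcribed base.
Rab5a, chr17:53479114-53479233, plus strand: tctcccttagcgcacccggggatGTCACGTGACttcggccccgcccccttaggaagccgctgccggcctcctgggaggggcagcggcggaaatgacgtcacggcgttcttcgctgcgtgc
Rab21, chr10:115315592-115315711, minus strand: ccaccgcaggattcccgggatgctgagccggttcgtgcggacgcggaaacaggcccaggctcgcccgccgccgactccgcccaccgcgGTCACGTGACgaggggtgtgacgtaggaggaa
Rab24, chr13:55321961-55321990, minus strand: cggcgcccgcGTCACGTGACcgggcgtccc
Rab20, chr8:11478641-11478760, minus strand: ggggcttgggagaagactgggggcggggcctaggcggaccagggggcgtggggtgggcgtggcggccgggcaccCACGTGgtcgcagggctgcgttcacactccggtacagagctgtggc
Rab3il1, chr19:10018074-10018193, plus strand: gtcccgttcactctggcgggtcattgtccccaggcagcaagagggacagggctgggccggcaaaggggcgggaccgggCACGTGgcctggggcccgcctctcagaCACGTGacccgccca

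The 3 genes with the full CLEAR letters had differences of 0.13 for Rab5a, 0.24 for Rab21 and -0.05 for Rab24, none of them near 2-fold. Rab20 and Rab3il1 hold CACGTG without T and A on both sides. In Rab20 the letters start 46 bases before the start site. In Rab3il1, which has 5 annotated start sites, they occur at 42 and 15 bases before the one shown. The other genes with CACGTG were Rab3gap2 at 0.61, Rab23 at -0.04 and Rab27a at -0.01. The 8 genes with CACGTG had a median difference of 0.19, and the 40 measured Rab genes whose promoters lack it had 0.21. At 2-fold or more higher were 2 of the 8, Rab20 and Rab3il1, and 1 of the 40, Rab15, against 9% of all measured genes. The difference between these counts was not tested. Rab15 is counted by its brightest probe only, and Rab37, the other Rab gene at least 2-fold higher, was in neither group. A match is a description of these letters and not a bound site, and binding was not measured here.

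Rabs of late endosomes, lysosomes and autophagosomes had a median of 0.18. Above 0 were 4 of 6 measured genes (66.7%, against 45.7% of all genes), and none was at 2-fold, against 17.3%. Rab39, also of late endosomes and more than 2-fold lower, was counted with the less studied genes and not here. Rab7, which directs late endosomes to fuse with lysosomes, went from a level of 0.80 to 1.47, 1.59-fold higher, with signals of 2042 and 3484. It is read by 1 probe, on chromosome 6 at 87950462 to 87950521 (mm9). Rab12, which acts in recycling endosomes to lysosome transport, had levels of 1.77 and 2.04, a difference of 0.27. Rab7l1, now named Rab29 and a partner of the kinase LRRK2, had 1.89 and 2.10, with 0.21 and 0.30 at its 2 probes.

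The remaining genes of this compartment had smaller or negative differences. Rab9, which acts in transport from late endosomes to the Golgi, had levels of 2.70 and 2.85 and probe differences of -0.0003 to 0.15 over 3 probes. Rab34, which acts in lysosome positioning, had signals of 18720 and 16153, a difference of -0.31. Rab24 had a difference of -0.05. Rab9b and Rab36 were not well above background on either array. Rab7b, the late endosomal relative outside the rule, had levels of 3.60 and 3.19, a difference of -0.41 opposite in sign to that of Rab7.

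Rabs of recycling endosomes and the plasma membrane had a median of 0.23. Above 0 were 9 of 11 measured genes (81.8%, against 45.7% of all genes). Rab4a, which acts in fast recycling, had levels of -0.63 and 0.16, 1.73-fold higher, and its 2 probes gave 0.59 and 0.79. Its relative Rab4b had a difference of -0.04. Rab8b, which carries cargo to the cell surface, had levels of 2.75 and 3.49, 1.66-fold higher, and its dimmer probe gave 1.04. Its relative Rab8a had 0.17 and 0.23 at its 2 probes. Both Rab8b probes thus lay above both Rab8a probes.

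Rab11a, the marker of recycling endosomes, had levels of 2.11 and 2.44, a difference of 0.33, and Rab11b had 0.22. Rab13, which acts at cell junctions, had -2.26 and -1.90, a difference of 0.36. Rab14 and Rab35 had differences of 0.13 and 0.19. Rab10, which brings vesicles to the surface, had -0.24 at its brightest probe and 0.26 at the other, so its direction is not settled. Rab25 was not well above background.

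Rab15, which acts in receptor recycling, had the largest difference of all Rab genes, and its probes disagreed in size. Its brightest probe had a signal of 7.26 in the control, not well above background, and 285 in the knockdown. Against a floor, the lowest signal that counted as well above background on the control array, this is 14.2-fold higher, and with normexp 4.05-fold. The first value depends on that floor and is not a sure minimum. This probe lies on chromosome 12 at 77898991 to 77899050 (mm9). The other, at 77901109 to 77901168, was above background on both arrays with levels of -5.47 and -4.85, a difference of 0.62. Its signals of 26.4 and 43.6 were near the floor, and with normexp its difference was 0.17. The 14.2-fold value therefore belongs to 1 probe and not to the gene.

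Rabs of the endoplasmic reticulum and Golgi had a median of 0.28. Above 0 were 6 of 10 measured genes (60%, against 45.7% of all genes), and none was at 2-fold, against 17.3%. Over the median of each gene's probes in place of the brightest, this compartment's median was 0.12. Rab1, now named Rab1a, which drives transport from the endoplasmic reticulum to the Golgi, had levels of 3.56 and 4.28, 1.64-fold higher. Rab1b had 3.65 and 3.92, a difference of 0.27. Rab43, which acts in retrograde and Golgi transport, had 2.38 and 3.06, 1.60-fold higher, with 0.18 at its other probe. Rab19 had 0.20 and 0.76, a difference of 0.55.

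Other Golgi genes were near 0, lower, or split between probes. Rab2a, which acts between the Golgi and the endoplasmic reticulum, had levels of 0.44 and 0.08, a difference of -0.36, and its relative Rab2b had 0.29. Rab6, now named Rab6a, a Rab of the trans-Golgi, had -0.07 at its brightest probe and -0.53 at the other. Rab33b, which acts at the Golgi and in autophagosome formation, had 0.35 and -0.50 at its 2 probes. Rab18, a Rab of lipid droplets and the endoplasmic reticulum, had -0.03 and Rab33a -0.16. Rab6b and Rab30 were not well above background.

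Of the 11 genes of secretory granules and lysosome-related organelles, 5 were not well above background on either array, the highest share of any compartment. Over all genes this was 9028 of 22800, a share not far from that of this compartment, and over all Rab genes 13 of 67. The measured genes of this compartment had a median of 0.03. Those 5 were Rab3b, Rab26, Rab27b, Rab38 and Rab44. Rab32, which supplies cargo to melanosomes and pathogen-containing vacuoles, had levels of 1.86 and 2.39, a difference of 0.53. Its relative Rab38 was among the 5 genes without signal. Rab27a, the Rab of regulated granule release, had -3.29 and -3.30, a difference of -0.01.

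Of the Rab3 genes, known from synaptic vesicle release, Rab3a had levels of 0.56 and 0.06, a difference of -0.50, and Rab3d had -0.14 and 0.01 at its 2 probes. Rab3c was read by 3 probes. Its pair on chromosome 13 at 110850524 to 110850583 and 110850530 to 110850589 (mm9) share 54 bases, yet gave 0.06 and -0.41. The third, at 110844454 to 110844513, had a signal of 46.4 in the control and 4.31 in the knockdown, where it was not well above background. Rab37, known from secretory granules, had brightest-probe levels of -6.11, not well above background, and -5.01. Against the floor of the control array that is 1.95-fold higher, and 1.21-fold with normexp. Its other probe, which shares 55 bases, was the brighter one after normexp, at 1.14-fold.

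The remaining GTPase genes, of cilia or less studied, had a median of -0.21. Above 0 was 1 of 5 measured genes (20%, against 45.7% of all genes). Rab39, a GTPase of late endosomes and phagosomes now also called Rab39a, was placed here as less studied. It was the single Rab gene at least 2-fold lower. Its signal was 59.7 in the control and 4.15 in the knockdown, where it was not well above background. Against the floor of the knockdown array that is 3.17-fold lower, and 2.28-fold with normexp. It comes from a single probe on chromosome 9 at 53492468 to 53492527 (mm9). Rab42 had levels of -4.06 and -4.41, a difference of -0.35. Rab28, linked to photoreceptor cilia, had -0.21, and Rab23, a regulator of hedgehog signalling, had -0.04. Rab40c, a Rab within a ubiquitin ligase, had 2.32 and 2.74, a difference of 0.43. Rab39b and Rab40b were not well above background.

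**Figure D3:**
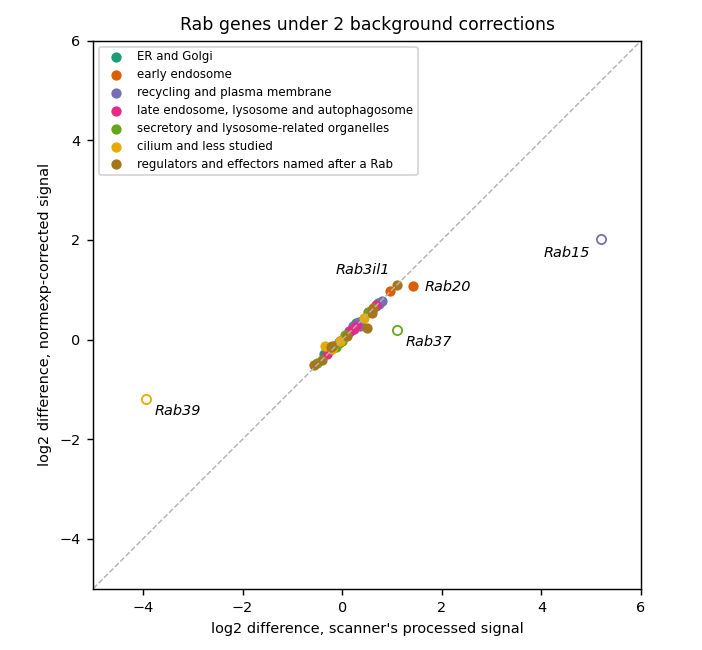
Log2 difference, knockdown minus control, of each measured Rab gene from the scanner's processed signal (x axis) and after normexp background correction (y axis), coloured by compartment, with open points for genes above background on 1 array only. Most genes lie on the dashed line of equal values, while Rab15, Rab37 and Rab39, the 3 open points, are nearer 0 with normexp, at 2.02, 0.19 (from its other probe, the brighter one there) and -1.19.

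All 9 regulators and effectors named after a Rab were above background on both arrays, with a median of 0.10. Of their differences, 5 were above 0 (55.6%, against 45.7% of all genes). Rab3il1, an exchange factor for Rab3 and Rab8 proteins, had signals of 8715 and 19970, and its level went from 2.89 to 3.99, 2.14-fold higher. With normexp it was 2.15-fold higher. Rab3ip, the related exchange factor known as Rabin8, had a difference of -0.56. The 2 exchange factors thus differed in sign. Rab3gap1 and Rab3gap2 form 1 complex, which inactivates Rab3 and activates Rab18. They had levels of -1.33 and -0.73, and of 2.03 and 2.64, with near-equal differences of 0.59 and 0.61. Of the Rab11 effectors, Rab11fip5 had a difference of -0.40, Rab11fip4 of 0.50, and Rab11fip1, Rab11fip2 and Rab11fip3 lay between -0.23 and 0.10. Rab11fip4 was dim, with signals of 55.4 and 83.6, and had 0.24 with normexp, where Rab11fip5 had -0.41.

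Several probes above background were available for 16 Rab genes, and all probes agreed in sign for 11 of them. The other 5 were Rab3c, Rab3d, Rab9, Rab10 and Rab33b, with brightest-probe differences from -0.24 to 0.35. In Rab9 and Rab3d the probe of opposite sign was close to 0, at -0.0003 and 0.01. For the 13 genes where more than 1 probe had signal above background on each array, the range between probes had a median of 0.29 and ran from 0.07 for Rab8a to 0.85 for Rab33b. Among genes above background on both arrays, Rab20, Rab22a and Rab3il1 had differences above the largest of these ranges. Each has 1 probe and so no range of its own. Ranges between probes do not measure variation between arrays or cultures. The largest rests on a dim Rab33b probe, with signals of 35.6 and 26.9, whose difference of -0.50 was -0.23 with normexp. The ranges leave out probes above background on 1 array only. With such probes, Rab15 ran from 0.62 to 5.20 and Rab3c from -3.53 to 0.06.

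**Figure D4:**
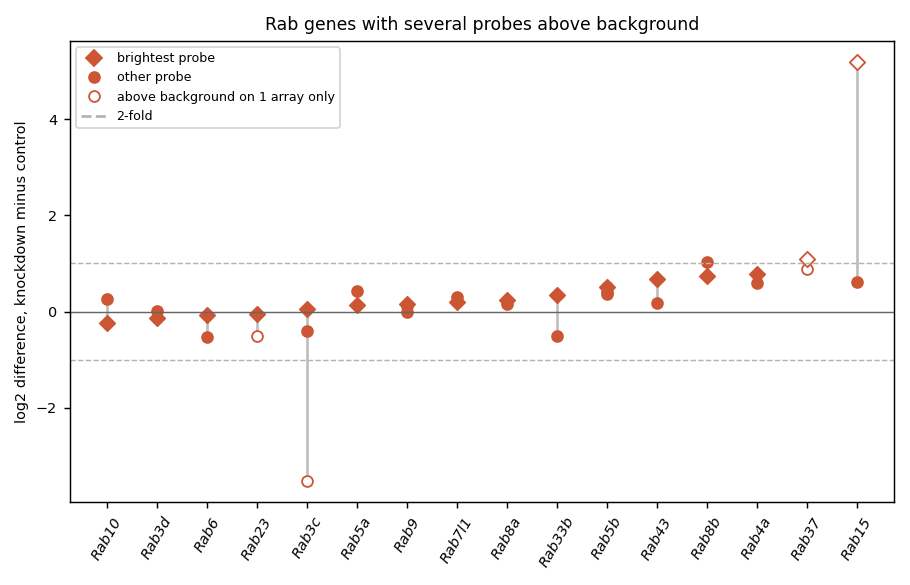
Log2 difference, knockdown minus control, at each probe above background for the 16 Rab genes with several such probes, with diamonds for the brightest probe, open symbols for probes above background on 1 array only and dashed lines at 2-fold. The 4 probes of Rab5b sit together, from 0.37 to 0.52, while the probes of Rab15 and Rab3c lie far apart.

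The proteins that load, unload and read Rabs were compared through 5 further lists of 127 genes, of which 115 were measured. Of these, 75 had a difference above 0 (65.2%, against 45.7% of all genes), 13 were at least 2-fold higher (11.3%, against 9%) and 1 was at least 2-fold lower (0.87%, against 8.35%). The median was 0.19. The GTPase-activating proteins had 26 of 33 differences above 0 (78.8%) and a median of 0.17, with 5 genes past 2-fold upward (15.2%) and none downward. Tbc1d2, also called Armus, which inactivates Rab7, had levels of 1.32 and 4.08, 6.80-fold higher, and 6.78-fold with normexp. Rabgap1l had -4.79 and -2.75, 4.11-fold higher and 2.22-fold with normexp. Tbc1d9, dim in the control and there not well above background, was 38.0-fold higher against the floor of that array, or 9.37-fold with normexp. The other two were Sgsm1 at 3.79-fold and Tbc1d20, which acts on Rab1, at 2.03-fold, both named here after their values were seen. For Tbc1d20 the fold was 2.01 with normexp.

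Effectors had the highest median of the 5 lists, 0.30, with 25 of 34 differences above 0 (73.5%, against 45.7% of all genes). In this list 6 genes passed 2-fold upward (17.6%, against 9%) and none downward, against 8.35%. Rabep1, the rabaptin that binds Rab5 at early endosomes, had levels of 1.20 and 2.43, 2.36-fold higher. Rilpl2, which binds LRRK2-phosphorylated Rabs, had a difference of 1.74, 3.34-fold higher. Mlph, the melanophilin that links Rab27a to myosin, lacked signal well above background in the control. Against the floor of that array it was 4.60-fold higher, or 2.00-fold with normexp.

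Exchange factors had a median of 0.14, with 18 of 34 differences above 0 (52.9%, against 45.7% of all genes). At 2-fold or more higher were 2 genes (5.88%), a smaller share than the 9% of all genes, and none was 2-fold lower, against 8.35%. Dennd2a, an exchange factor for Rab9, had levels of 0.26 and 2.22, 3.88-fold higher. Dennd4c, which activates Rab10, had -4.95 and -3.92, 2.04-fold higher and 1.42-fold with normexp. Madd, which activates Rab3 and Rab27, had 5.23 and 6.09, a difference of 0.86.

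Genes of prenylation and membrane extraction had a median of -0.17, with 3 of 8 differences above 0 (37.5%, against 45.7% of all genes). At least 2-fold lower was 1 of the 8 (12.5%, against 8.35%), and none was 2-fold higher, against 9%. Chml, 1 of 2 escort proteins that present Rabs for prenylation, had levels of -0.12 and -1.18, 2.09-fold lower. With normexp its difference was -0.999, just under 2-fold, and the median over its 2 probes was -1.65. Rabif, which stabilises nucleotide-free Rabs, had a difference of 0.42. The 6 measured Rab-like genes had a median of 0.07 and none was at 2-fold, against 17.3% of all genes. Ift22 had 0.23, Cracr2a 0.21 and Rabl6 -0.20.

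**Figure D5:**
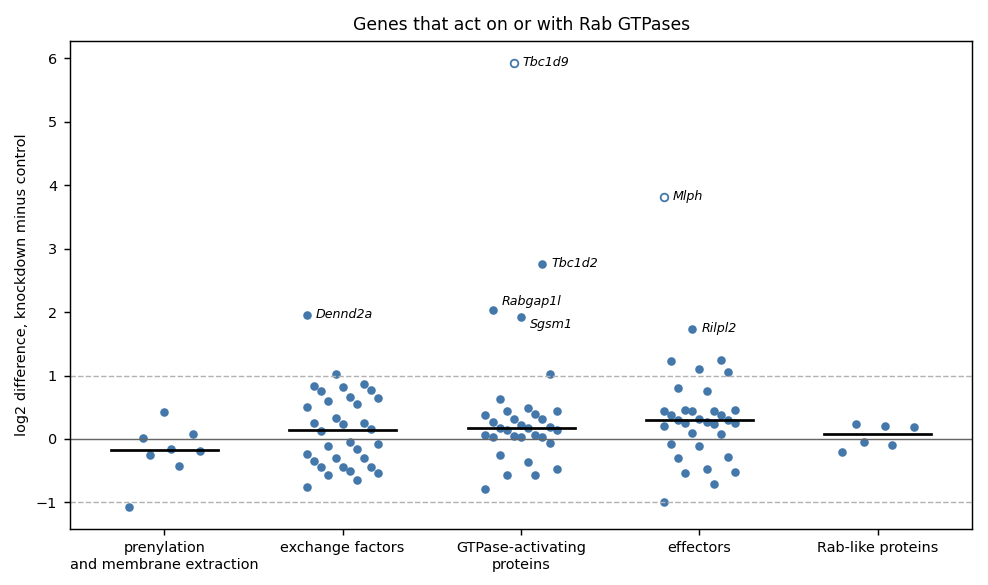
Log2 difference, knockdown minus control, of each measured gene in 5 lists of genes that act on or with Rab GTPases, with a bar at each list's median, dashed lines at 2-fold and open points for genes above background on 1 array only. The lists of GTPase-activating proteins and effectors have 5 and 6 genes above the upper dashed line, and Chml is the single gene below the lower one.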

How the data were processed

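Total RNA (200 ng a sample) was labelled with Cy3 alone, per the labels. Per the submitters' processing notes, the deposited scanner files come from Agilent Feature Extraction 10.7.3.1, and hold a linear intensity for every spot. Detrending within the array and surrogates for signals near background were on, and probe positions refer to mm9, per the file headers. The deposited value table holds the same intensity, with ratios of scanner to table value from 0.995 to 1.005. Between 52.9% and 53.3% of spots were well above background and none was saturated. The number of arrays limits the precision.

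From the deposited intensity, log2 values were taken and the 75th percentile of an array's non-control spots was subtracted. Outlier spots were left out, which cost no Rab probe. Background genes were named through RefSeq (GRCm38.p6, for names only): accessions named 26049 probes, symbols 3200 and older symbols 930, while 9250 stayed unnamed. For a bound, the bright signal was divided by a floor on the other array: its lowest signal counted as well above background, or the probe's own if higher. A bound depends on this floor and is not a sure minimum, and each fold given this way was smaller with normexp. Normexp (limma 3.58.1, offset 50), other scalings, filters and probe rules were run as alternatives. The calculation was tested on simulated data, with shifts put on genes above background on both arrays. That test covered neither dim genes nor variation between cultures.

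Named genes were those at 2-fold, up to 4 per compartment with the largest differences, genes whose probes disagree, 8 textbook markers and up to 3 genes per further list. Others are named to account for every member. A gene that the rule names in a further list is not reported here. The members, lists and rules were chosen with earlier results of these data known.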

Additional observations from a re-analysis of the deposited data

How the results depend on the processing

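No paired analysis was possible because each group has 1 array. The median Rab difference of 0.21 was 0.30 after median scaling and 0.15 without the filter on dim probes, and from 0.17 to 0.21 under the other alternatives, so it stayed above 0 in all of them. With genes above background on both arrays only, 2 Rab genes were at least 2-fold higher, 0 were 2-fold lower, and the median of the cilium group was -0.13. After median scaling, the compartment medians were 0.37 for endoplasmic reticulum and Golgi, 0.34 for early endosomes, 0.33 for recycling, 0.27 for late endosomes, 0.12 for secretory organelles, -0.12 for the cilium group and 0.19 for regulators. The further lists then had 0.40 for effectors, 0.26 for GTPase-activating proteins, 0.23 for exchange factors, 0.16 for Rab-like genes and -0.082 for prenylation. Without the filter on dim probes, the medians were 0.12 for endoplasmic reticulum and Golgi, 0.38 for early endosomes, 0.28 for recycling, -0.035 for secretory organelles, -0.058 for the cilium group, 0.24 for effectors and -0.024 for Rab-like genes. As the median over probes, they were 0.12 for endoplasmic reticulum and Golgi, -0.035 for secretory organelles, -0.28 for the cilium group and 0.14 for Rab-like genes. With normexp they were 0.33 for endoplasmic reticulum and Golgi and -0.14 for the cilium group. The medians of secretory organelles and of Rab-like genes thus have no settled sign. Of 505 recomputed single-gene values, 402 moved by less than 0.044, the median SD of a single-spot difference, and 103 by more. Several alternatives cannot move a gene with 1 probe that is above background on both arrays, so these counts do not measure stability. Rab10, Rab27a, Rab33b and Rab3c changed sign in some alternative, and no gene past 2-fold did. The deposited value table, the GTPase genes alone and Rab7b added were chosen after seeing the data, and none of them moved a count of Rab genes by over 1.5 times. Median scaling moves every gene by the same amount by construction. The cause of the other moves was not tested.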
